A study of Mus musculus with 6 samples.

Results

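Matrix metalloproteinases, ADAMs and their tissue inhibitors (TIMPs) were examined in blood neutrophils of mice with ligature-induced periodontitis (LIP). The 10 genes were taken by symbol: *Mmp8*, *Mmp9*, *Mmp25*, *Mmp19*, *Adam8*, *Adam10*, *Adam17*, *Adam19*, *Timp1* and *Timp2*. Each was found on 1 row of the 29097 genes listed in the count table. CD45+CD11b+Ly6G+ neutrophils were sorted from peripheral blood (PB) of 8-week-old male C57BL/6 mice, either after 14 d of silk ligation (LIP, labelled Lig) or without ligation (Ctrl). Each group had 3 Smart-seq2 libraries, and each library held the pooled neutrophils of 5 mice, so the spread between libraries is a spread between pools.

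Metalloproteinases of these families are made as inactive proenzymes and hold a zinc ion in the catalytic site. Secreted matrix metalloproteinases cut collagens, gelatin and other matrix proteins, while ADAMs sit in the cell membrane and release the outer parts of neighbouring membrane proteins, a process called shedding. TIMPs bind the catalytic site and block it. Neutrophils are known for storing MMP8 and MMP9 in granules that are emptied when the cell is stimulated, and for shedding surface receptors through ADAM17.

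The zinc site is what the 8 protease genes share at the sequence level, and its coding stretch is shown for each of them because the inhibitors and the enzymes' activity depend on it. The stretch was found by searching the annotated coding sequences (GENCODE M21, GRCm38) for codons of the pattern His-Glu-x-x-His-x-x-Gly-x-x-His, where x is any residue. It runs over 11 codons, and the capitals mark the codons of the 3 histidines, the glutamate and the glycine.
Mmp8: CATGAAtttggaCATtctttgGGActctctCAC
Mmp9: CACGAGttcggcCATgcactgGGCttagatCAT
Mmp25: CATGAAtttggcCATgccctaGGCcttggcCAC
Mmp19: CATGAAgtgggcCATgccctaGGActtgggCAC
Adam8: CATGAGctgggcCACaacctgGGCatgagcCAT
Adam10: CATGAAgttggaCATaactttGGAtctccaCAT
Adam17: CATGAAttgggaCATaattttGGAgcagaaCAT
Adam19: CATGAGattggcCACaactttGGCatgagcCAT

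The pattern occurred once in each of the 8 coding sequences and in 69 of 21562 genes with a coding sequence, or 0.320%. In *Mmp8* the stretch covers codons 217 to 227 in exon 5 (chr9:7563086-7563118, plus strand), and in *Mmp9* codons 401 to 411 in exon 8 (chr2:164951133-164951165, plus strand). That of *Adam10* is split between exons 9 and 10. Among pairs of the 8 stretches, between 17 and 29 of 33 bases were identical. *Mmp25* and *Mmp19* shared 29 bases, *Adam8* and *Adam19* also shared 29, and the sheddases *Adam10* and *Adam17* shared 26. The cysteine switch, the part of the propeptide that keeps a matrix metalloproteinase inactive, was searched as the codons of Pro-Arg-Cys-Gly-x-Pro-Asp. A switch with other letters is missed by this search, so a gene without a match may still hold one. Among the 10 genes, the exact letters were found in *Mmp8* (codons 89 to 95, exon 2) and *Mmp9* (codons 98 to 104, exon 2), with the matching codons in capitals.
Mmp8: CCTCGATGTGGAgtgCCTGAC
Mmp9: CCACGCTGTGGTgtcCCAGAC

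Total counts per library lay between 52186555 and 57262379. The labelled cell type was present by its markers: *Ly6g*, which encodes the surface protein used in the sort, stood at 18.8 ± 0.692 FPKM (SD, n = 3) in Ctrl and 44.7 ± 5.95 FPKM (SD, n = 3) in LIP, and all 20 genes of a mature neutrophil list were detected and tested. The libraries also held RNA of other blood cells, in amounts that moved with the group. Haemoglobin genes took 14.6% to 15.0% of the counts in Ctrl libraries and 1.55% to 1.61% in LIP libraries. Summed over a list of 10 B cell genes, FPKM lay between 3752 and 4046 in Ctrl and between 543 and 606 in LIP. The corresponding ranges for 10 T cell genes were 273 to 311 and 46.1 to 59.3. At an edgeR adjusted p under 0.05, all 10 B cell, 10 T cell and 9 tested erythroid genes were lower in LIP. Genes were tested if their FPKM averaged 1 or more. *Cd4*, *Cd8a*, *Cd5* and *Slc4a1*, named after their values were seen, reached that level only through the Ctrl libraries. Their LIP means were 0.859, 0.694, 0.616 and 0.403 FPKM, so their lower calls are not independent of that filter. Over all genes tested, 27.2% were called lower and 26.5% higher. By the mean over all 6 libraries, *Ighm*, *Lck* and *Hba-a1* were the most abundant of each list. The sum of 11 monocyte and dendritic cell genes, led by *Cd74*, lay between 8675 and 9353 FPKM in Ctrl and between 1959 and 2050 FPKM in LIP. Most of that sum came from *Cd74*, with means of 7225 FPKM in Ctrl and 1209 FPKM in LIP. *H2-Ab1*, named after its values were seen, followed with 1254 and 208 FPKM. These were the 2 lower genes of the 10 tested, and 7 were higher, so the fall of the sum does not stand for the list. Of the 10 erythroid genes in the list, *Ahsp* was absent from the 29097 genes, all of which had reads in at least 1 library. All 8 platelet genes, led by *Ppbp*, were higher in LIP, with sums of 846 to 1078 FPKM in Ctrl and 1771 to 2078 FPKM in LIP. In such bulk samples, fewer cells of a type and less RNA per cell cannot be told apart. The part of these markers in the results on the proteases was not tested.

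FPKM is the number of fragments scaled to gene length and library total, and allows levels to be compared between genes. Fold changes were taken from edgeR's quasi-likelihood test on the counts, and adjusted p-values are Benjamini-Hochberg values over all 10440 genes whose FPKM averaged 1 or more. Of the 10 genes, 9 reached that level, and *Timp1* did not. The 7 genes *Mmp8*, *Mmp9*, *Mmp25*, *Mmp19*, *Adam8*, *Adam19* and *Timp2* were higher in LIP, or 7 of 9 tested, beside 26.5% of all genes tested that were called higher and 53.6% called in either direction. None of the 9 was called lower by edgeR, beside 27.2% of all genes tested at the same adjusted threshold. By DESeq2, too, none was lower, and 0 were lower at an unadjusted edgeR p under 0.05. The same 7 genes had LIP values wholly above the Ctrl values, which was so in either direction for 63.4% of all genes tested. The median log2 fold change of the 9 genes was 1.84, beside -0.09 over all genes tested. These values depend on how the libraries are scaled, and values relative to neutrophil transcripts of the same library follow after the single genes.

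**Figure D1:**
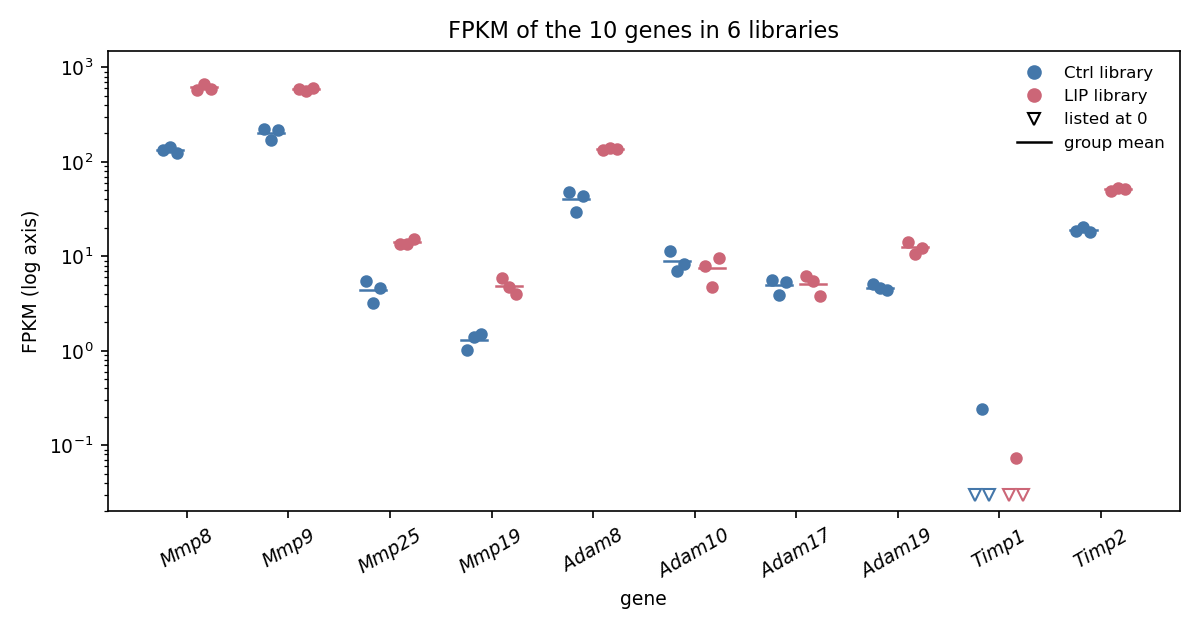
FPKM of the 10 genes (x axis) on a log y axis. Each circle is 1 library (3 Ctrl, 3 LIP), bars are group means, and triangles mark libraries listed at 0, drawn at the foot of the axis; no mean is drawn for *Timp1*. The LIP circles lie above the Ctrl circles for 7 genes and overlap them for *Adam10* and *Adam17*.

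*Mmp8* encodes neutrophil collagenase, which cuts fibrillar collagens and is stored in specific granules (chr9:7558456-7568485, plus strand, GRCm38). Its level was 132, 143 and 125 FPKM in the Ctrl libraries and 580, 673 and 592 FPKM in the LIP libraries. Every LIP library was more than 4 times above the highest Ctrl library. The means were 133 ± 8.77 and 615 ± 50.7 FPKM (SD, n = 3 each), and the log2 fold change was 2.51 (SE 0.097, edgeR adjusted p = 5.55e-08). In linear terms this was a 5.71-fold higher level after TMM normalization, with a 95% confidence interval of 4.92 to 6.62. With library totals the log2 fold change was 2.19, below the log2 interval of 2.30 to 2.73 after TMM normalization. The counts behind these values were 17224 to 20390 reads per Ctrl library and 81048 to 99592 per LIP library.

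*Mmp9* encodes gelatinase B, which degrades denatured collagen and basement membrane collagen and gives its name to the gelatinase granules (chr2:164940780-164955850, plus strand). Its level was 222, 169 and 215 FPKM in Ctrl and 584, 563 and 607 FPKM in LIP. The groups were far apart, with the lowest value of the 6 in Ctrl replicate 2. The log2 fold change was 1.84 (SE 0.10, edgeR adjusted p = 3.60e-07), or 3.59-fold with an interval of 3.06 to 4.2. *Mmp9* was the most abundant of the 10 genes in each Ctrl library, while in LIP the ranges of *Mmp8* and *Mmp9* overlapped. Together *Mmp8* and *Mmp9* made up 80.0% of the summed FPKM of the 10 genes in Ctrl and 83.8% in LIP.

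*Mmp25* encodes MT6-MMP or leukolysin, a metalloproteinase tied to the leukocyte membrane by a lipid anchor (chr17:23628311-23645277, minus strand). It was listed at 5.50, 3.22 and 4.63 FPKM in Ctrl and at 13.4, 13.7 and 15.1 FPKM in LIP. The LIP libraries were close to each other and all above Ctrl, while Ctrl replicate 2 was again the lowest. The log2 fold change was 1.97 (SE 0.19, edgeR adjusted p = 1.10e-05). *Mmp19*, a secreted metalloproteinase found in many tissues (chr10:128790910-128800824, plus strand), had the lowest mean of the proteases in each group, at 1.03, 1.40 and 1.51 FPKM in Ctrl and 5.88, 4.68 and 4.02 FPKM in LIP. Its groups did not overlap, and it was 4.56-fold higher with a wide interval of 2.97 to 7.0 (log2 fold change 2.19, SE 0.28, edgeR adjusted p = 9.01e-05). The gene overlaps *Tmem198b* on the opposite strand by 789 bases, with a mean of 1.44 FPKM for *Tmem198b*. Whether strand was used in counting is not given in the sources used here, so reads in shared bases cannot be assigned with certainty.

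The ADAM genes fell into a pair that rose and a pair for which no difference was detected. *Adam8* encodes a leukocyte membrane protease and adhesion protein (chr7:139978932-139992562, minus strand). Its level was 48.4, 29.4 and 43.6 FPKM in Ctrl and 132, 141 and 136 FPKM in LIP. LIP libraries differed little among themselves and lay well above Ctrl, whose replicate 2 was the lowest. The log2 fold change was 2.07 (SE 0.16, edgeR adjusted p = 2.33e-06), or 4.19-fold with an interval of 3.29 to 5.32. *Adam19*, also called meltrin beta, a membrane protease that processes growth factors such as neuregulins (chr11:46055992-46147343, plus strand), was at 5.08, 4.58 and 4.35 FPKM in Ctrl and 14.3, 10.7 and 12.4 FPKM in LIP. The groups did not overlap. It was 3.30-fold higher, with an interval of 2.64 to 4.13 (log2 fold change 1.72, SE 0.15, edgeR adjusted p = 4.86e-06).

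*Adam10* and *Adam17* encode the widely expressed sheddases, the first known for Notch and CD23 and the second for TNF. *Adam10* (chr9:70678997-70780229, plus strand) was at 11.4, 6.96 and 8.35 FPKM in Ctrl and 7.99, 4.77 and 9.71 FPKM in LIP. The groups overlapped throughout, with the highest value in Ctrl replicate 1 and the lowest in LIP replicate 2. The log2 fold change was 0.06 (SE 0.26, edgeR adjusted p = 0.847), and the interval of the fold change ran from 0.704 to 1.55. *Adam17* (chr12:21323509-21373632, minus strand) was at 5.68, 3.90 and 5.35 FPKM in Ctrl and 6.20, 5.42 and 3.83 FPKM in LIP. Again the groups overlapped, and the lowest value was in LIP replicate 3. The log2 fold change was 0.36 (SE 0.21, edgeR adjusted p = 0.173) with a fold interval of 0.928 to 1.78, so changes of up to these sizes were not distinguishable from none. Without LIP replicate 3 the log2 fold change of *Adam17* was 0.53 with an edgeR adjusted p of 0.0498, and that call therefore rests on 1 library. *Adam17* overlaps *Iah1*, at a mean of 4.93 FPKM, by 311 bases on the opposite strand.

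The inhibitors were far apart in level. *Timp2* encodes an inhibitor that also takes part in the activation of pro-MMP2 at the cell surface (chr11:118301069-118355740, minus strand). Its level was 18.6, 20.6 and 18.0 FPKM in Ctrl and 49.3, 52.9 and 51.9 FPKM in LIP. The groups were well separated and each was narrow. It was 3.33-fold higher, with an interval of 2.81 to 3.95 (log2 fold change 1.74, SE 0.11, edgeR adjusted p = 8.44e-07). *Timp1*, the inhibitor known for binding pro-MMP9 (chrX:20870166-20874735, plus strand), had 0, 13 and 0 reads in Ctrl and 0, 4 and 0 reads in LIP, against 3988 to 12585 reads for *Timp2*. A count of 0 allows up to 3 reads, or 0.0498 to 0.0636 CPM (counts scaled to library total) across the libraries, and no fold change is given for *Timp1*. The gene lies wholly inside *Syn1* on the opposite strand, whose mean was 2.60 FPKM.

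Per gene length, the order of means in Ctrl was *Mmp9*, *Mmp8*, *Adam8*, *Timp2*, *Adam10*, *Adam17*, *Adam19*, *Mmp25*, *Mmp19* and *Timp1*. Neighbours in that order did not overlap in FPKM except *Adam17* with *Adam19* and *Adam19* with *Mmp25*. In LIP the order was *Mmp8*, *Mmp9*, *Adam8*, *Timp2*, *Mmp25*, *Adam19*, *Adam10*, *Adam17*, *Mmp19* and *Timp1*. Here 4 pairs of neighbours overlapped, namely *Mmp8* with *Mmp9*, *Mmp25* with *Adam19*, *Adam10* with *Adam17* and *Adam17* with *Mmp19*. *Adam10* thus stood above *Mmp25* and *Adam19* in the Ctrl means and below them in the LIP means.

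Ratios of FPKM between members of 1 library do not depend on how libraries are scaled to each other. The ratio of *Mmp8* to *Mmp9* was 0.594, 0.845 and 0.583 in Ctrl and 0.992, 1.2 and 0.975 in LIP. Every LIP ratio was above every Ctrl ratio, so the collagenase gained on the gelatinase by 0.66 on the log2 scale. The ratio of *Mmp8* to *Timp2* was 7.12, 6.92 and 6.94 in Ctrl and 11.8, 12.7 and 11.4 in LIP, a difference of 0.77 on the log2 scale with no overlap. By contrast, the ratio of *Mmp9* to *Timp2* was 12.0, 8.19 and 11.9 in Ctrl and 11.9, 10.6 and 11.7 in LIP. These values overlapped, and the difference was 0.11 on the log2 scale (two-sided exact permutation p = 1.0). The ratio of *Mmp25* to *Mmp9* also overlapped between groups (log2 difference 0.15, exact permutation p = 0.3).

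**Figure D2:**
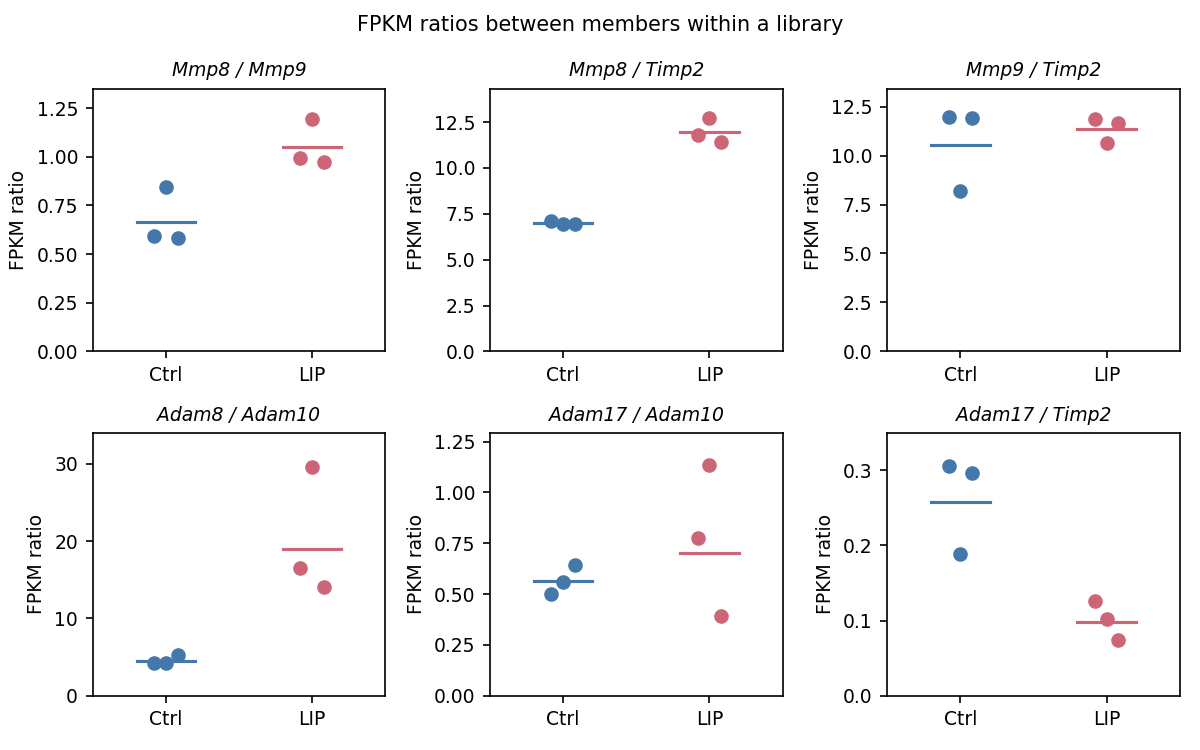
FPKM ratios (y axis, from 0) of 6 pairs of genes in Ctrl and LIP libraries; circles are libraries and bars geometric means of 3. The ratios *Mmp8*/*Mmp9*, *Mmp8*/*Timp2* and *Adam8*/*Adam10* are higher in every LIP library, *Adam17*/*Timp2* is lower in every LIP library, and the groups overlap for *Mmp9*/*Timp2* and *Adam17*/*Adam10*.

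Within the ADAM genes, the ratio of *Adam8* to *Adam10* was 4.26, 4.22 and 5.22 in Ctrl and 16.5, 29.6 and 14.0 in LIP. The lowest LIP ratio was above the highest Ctrl ratio, and the geometric means were 4.55 and 19.0. The ratio of *Adam17* to *Adam10* overlapped between groups (log2 difference 0.32, exact permutation p = 0.6), with its widest spread in LIP, from 0.394 to 1.14. The ratio of *Adam17* to *Timp2* was 0.306, 0.189 and 0.297 in Ctrl and 0.126, 0.102 and 0.0737 in LIP, lower in every LIP library. This ratio compares transcript levels only, and whether this inhibitor blocks the protease was not tested. In all, 25 ratios were tested. For 3 libraries against 3 the smallest p that the exact permutation test can give is 0.1, which each ratio without overlap reached, with an adjusted p of 0.167, so none could pass 0.05. Ratios to *Timp1* were not formed, since libraries were at 0.

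The members were next set against neutrophil transcripts of the same library, as the difference between log2 FPKM of the gene and the mean log2 FPKM of 20 mature neutrophil genes, a list that includes *Ly6g*, *S100a8* and *S100a9* and none of the 10. All 20 were themselves higher in LIP, beside 26.5% of all genes tested, with a median log2 fold change of 1.88. *Mmp8* rose further than this list in every LIP library, by a log2 difference of 0.69 without overlap. *Mmp9*, *Mmp25*, *Mmp19*, *Adam8*, *Adam19* and *Timp2* had log2 differences of 0.03, 0.19, 0.38, 0.28, -0.10 and -0.08, and their groups overlapped. *Adam10* and *Adam17* were lower relative to the list in every LIP library, by log2 differences of -1.79 and -1.47.

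The same was done with 15 genes of granule proteins and their membrane partners, among them *Camp*, *Ltf* and *Lyz2*; 3 of them are also in the mature neutrophil list. All 15 were higher in LIP, beside 26.5% of all genes tested, with a median log2 fold change of 1.60. Relative to them, *Mmp8* (log2 difference 1.17), *Mmp19* (0.86), *Adam8* (0.75), *Mmp25* (0.66), *Mmp9* (0.51) and *Timp2* (0.40) were higher in every LIP library. *Adam19* overlapped between groups at 0.37. *Adam10* (-1.31) and *Adam17* (-0.99) were lower in every LIP library. Of the 5 primary granule genes, made early in neutrophil development, 3 were tested and none passed the threshold. The median log2 fold change was -0.02, with *Ctsc* (0.04) the most abundant. The others, named after their values were seen, were *Prtn3* (-0.02) and *Elane* (-1.33, SE 0.96). Below the filter, *Mpo* had 129, 182 and 185 reads in Ctrl and 0, 0 and 40 in LIP. *Ctsg* had 4 reads in LIP replicate 2 only.

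When the count test itself was scaled on the mature neutrophil list, 1 of the 9 genes was higher (*Mmp8*) and 2 were lower (*Adam10*, log2 fold change -1.75, edgeR adjusted p = 1.66e-04, and *Adam17*, -1.46, edgeR adjusted p = 9.22e-05). On the granule list, 6 were higher and the same 2 were lower. Of all 10440 genes tested, 61 were higher and 9253 lower on the mature neutrophil list, and 318 and 8098 on the granule list. By construction, such scaling subtracts the rise of the list from each gene, and the median log2 fold change over all genes became -1.91 and -1.44. The directions therefore hold relative to the list used. Of the calls over all genes, 49.4% were higher after TMM normalization, 31.6% with library totals, 32.1% and 32.3% with limma on log2 FPKM with pseudocounts of 1 and 0.1, 3.78% on the granule list and 0.655% on the mature neutrophil list.

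**Figure D3:**
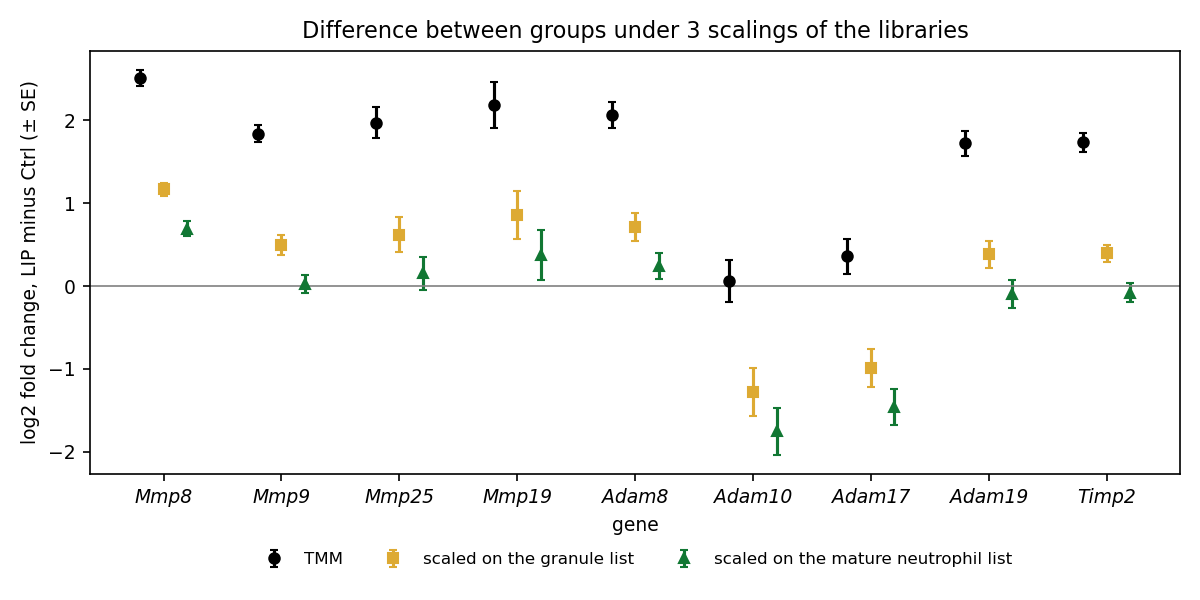
Log2 fold change, LIP minus Ctrl (y axis, ± SE), of the 9 tested genes (x axis) in edgeR after TMM normalization and after scaling on the granule list or the mature neutrophil list, with 3 libraries per group. *Mmp8* stays above 0 in all 3 scalings, while *Adam10* and *Adam17* move from 0.06 and 0.36 to -1.75 and -1.46.

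Other genes of the same families were scarce. Of 53 further *Mmp*, *Adam*, *Adamts* and *Timp* genes, 42 were in the table and 4 reached a mean FPKM of 1. *Adam15*, a membrane protease with a disintegrin domain, was at 3.59 ± 0.423 FPKM in Ctrl and 8.27 ± 2.34 FPKM in LIP (SD, n = 3 each; log2 fold change 1.51, edgeR adjusted p = 2.28e-04). *Adam9*, a related sheddase, was at 2.23 ± 1.26 and 3.72 ± 0.921 FPKM (SD, n = 3 each; log2 fold change 1.06, edgeR adjusted p = 0.0405). The *Adam9* spread in Ctrl was wide, and the number of these 4 genes called higher dropped from 2 to 1 without Ctrl replicate 2, Ctrl replicate 3, LIP replicate 1 or LIP replicate 3. *Adamts14* (0.71) and *Adamts10* (-0.24) did not pass the threshold. The median of the 4 log2 fold changes was 0.89, and 2 of the 4 were called higher, beside 26.5% of all genes tested.

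Among 18 genes for proteins that process or escort the proteases, 9 were tested. In LIP, 5 were higher, beside 26.5% of all genes tested, and the median log2 fold change was 0.69. Scaled on the mature neutrophil list, however, 0 were higher and 8 lower, beside 61 higher and 9253 lower of all 10440 genes tested. *Furin*, the protease that removes the prodomain of ADAMs and membrane-type MMPs, went from 7.23 ± 0.946 to 16.6 ± 1.23 FPKM (SD, n = 3 each; log2 fold change 1.5, edgeR adjusted p = 5.52e-06). *Rhbdf2*, which encodes iRhom2, the escort of ADAM17 to the cell surface, rose by 1.15 on the log2 scale (edgeR adjusted p = 2.04e-04), and *Tspan14*, an escort of ADAM10, by 0.69 (edgeR adjusted p = 0.00208). The urokinase receptor gene *Plaur*, abundant at 360 ± 29.8 FPKM in Ctrl and 510 ± 42.1 FPKM in LIP (SD, n = 3 each), rose by 0.81 on the log2 scale, and the plasminogen activator inhibitor gene *Serpinb2* by 2.69 from a low level of 0.364 ± 0.0359 FPKM (SD, n = 3). *Serpinb2* reached the filter only through the LIP libraries, at 1.94 ± 0.348 FPKM (SD, n = 3), so its place among the 5 higher genes is not independent of that filter. *Pcsk7*, *Frmd8*, *Tspan5* and *Tspan17*, named after their values were seen, had log2 fold changes of 0.42, 0.22, 0.53 and 0.38 that did not pass.

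**Figure D4:**
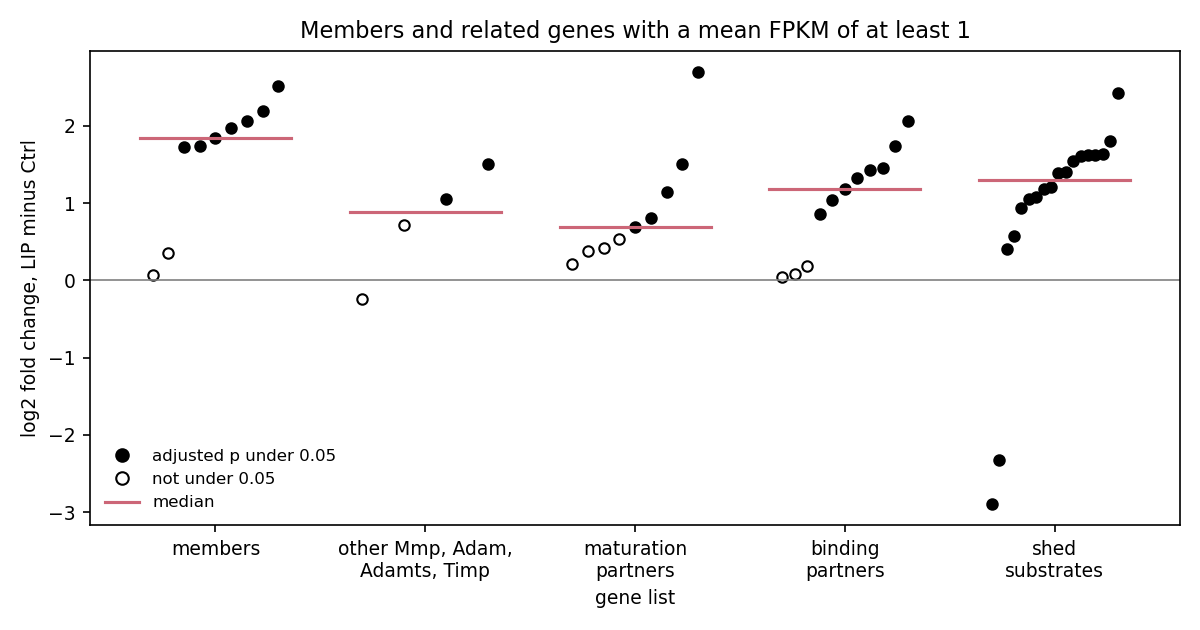
Log2 fold change, LIP minus Ctrl (y axis, edgeR after TMM normalization), of the 9 tested genes and of 4 lists of related genes (x axis). Each circle is a gene, filled where the adjusted p is under 0.05, and bars are medians, at 1.84, 0.89, 0.69, 1.18 and 1.30 from left to right, all relative to TMM normalization. The 2 lowest circles among the shed substrates are *Fcer2a* and *Cd40*.

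Of 12 genes for proteins that bind or hold the proteases, 11 were tested. In LIP, 8 were higher, beside 26.5% of all genes tested, and the median log2 fold change was 1.18. Scaled on the mature neutrophil list, however, 1 was higher and 9 were lower, beside 61 higher and 9253 lower of all 10440 genes tested. *Lcn2* encodes the granule protein NGAL, which forms a complex with MMP9, and went from 140 ± 13.6 to 472 ± 28.7 FPKM (SD, n = 3 each; log2 fold change 2.06, edgeR adjusted p = 2.15e-07). *Itgam* and *Itgb2*, the chains of the integrin Mac-1, rose by 1.74 and 1.46 on the log2 scale, *Cd44*, a docking receptor for MMP9, by 1.42, and the tetraspanin gene *Cd9* by 1.33. *Lcn2* and *Itgam* are also in both neutrophil lists. *Reck*, a membrane-bound inhibitor of metalloproteinases, *Bsg*, an inducer of them, and *Itga4*, named after their values were seen, had log2 fold changes of 0.18, 0.09 and 0.05 that did not pass.

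Of 27 genes for known substrates of shedding, 18 were tested. In LIP, 16 were higher and 2 lower, beside 26.5% and 27.2% of all genes tested. The median log2 fold change was 1.30. *Il1r2*, the decoy receptor for IL-1, was the most abundant, at 566 ± 14.9 FPKM in Ctrl and 1423 ± 91.1 FPKM in LIP (SD, n = 3 each; log2 fold change 1.64, edgeR adjusted p = 1.83e-07). The ADAM17 substrate *Tnfrsf1a* (a TNF receptor) rose by 1.62 on the log2 scale. *App*, *Fas* and *Selplg* rose by 2.43, 1.62 and 1.61. *Jam3*, at 0.558 FPKM in Ctrl and 1.58 FPKM in LIP (log2 fold change 1.81), reached the filter only through the LIP libraries, and without a filter 15 genes of this list were higher in place of 16. The log2 fold changes of *Fcer2a* (CD23) and *Cd40* were -2.89 and -2.32 (edgeR adjusted p = 3.27e-07 and 4.99e-04); both are genes of B cells, *Cd40* reached the filter only through the Ctrl libraries, *Fcer2a* is also in the B cell list, and the fall of that list is given above. Transcript levels of substrates say nothing of how much was shed. Scaled on the mature neutrophil list, 1 of these 18 genes was higher and 12 were lower, beside 61 and 9253 of all 10440 genes tested. The directions given for the substrates are thus relative to TMM normalization.

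The genes whose pattern over the 6 libraries was most like that of 3 members were sought among the 3386 genes averaging 10 FPKM or more, by the root mean square distance between centred log2 CPM values. Nearest to *Mmp9* were *F630028O10Rik* (0.0279), *Mxd1* (0.0349), a transcriptional repressor gene, and *Stx11* (0.0374), a gene of granule release. Nearest to *Mmp8* were *Mrgpra2b* (0.0586), *Ifitm1* (0.0948) and *Lrg1* (0.0957). Nearest to *Mmp25* were *Ampd3* (0.0669), *Xdh* (0.0780) and *Adam8* (0.0789). All 9 of these genes share the contrast between the groups, with log2 fold changes of 1.85 to 2.66, and the distances are a description over 6 libraries.

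Promoter sequences, taken from RefSeq (GRCm38.p6) as the 250 bases before an annotated start, were matched for 8 of the 10 genes, and *Mmp9* and *Mmp19* had no entry. They were searched on both strands for the letters of 4 motifs, TTGCNNAA of C/EBP, GAGGAA of PU.1, TGANTCA of AP-1 and TATAAA of the TATA box, which occur in 9.56%, 23.3%, 6.75% and 12.4% of 32851 promoters of this length; the 4 sets of letters were counted separately, also where matches overlap. C/EBP and PU.1 are factors of granulocyte genes. The C/EBP letters were in *Mmp8*, 19 bases before the start, and in *Adam8*, 219 bases before it. The PU.1 letters were in *Mmp8*, in *Mmp25* and at 1 of 3 starts of *Adam19*, and the AP-1 letters at another start of *Adam19*. The windows of *Adam10*, *Adam17*, *Timp1* and *Timp2* held none of the 4. The *Timp2* window (chr11:118355412-118355661, minus strand) lies inside the gene as listed in the count table. The bases before that listed start were not searched. The promoters of *Mmp8* and *Adam8* are shown as those with the C/EBP letters and that of *Adam10* as one of a gene for which no difference was detected, with matched letters in capitals. They lie at chr9:7558179-7558428 (plus strand), chr7:139992563-139992812 (minus strand) and chr9:70678732-70678981 (plus strand).
Mmp8: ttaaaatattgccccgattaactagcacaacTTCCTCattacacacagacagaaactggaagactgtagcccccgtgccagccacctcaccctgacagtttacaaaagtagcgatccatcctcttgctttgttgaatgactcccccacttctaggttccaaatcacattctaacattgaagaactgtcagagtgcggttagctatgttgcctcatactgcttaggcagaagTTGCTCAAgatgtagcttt
Adam8: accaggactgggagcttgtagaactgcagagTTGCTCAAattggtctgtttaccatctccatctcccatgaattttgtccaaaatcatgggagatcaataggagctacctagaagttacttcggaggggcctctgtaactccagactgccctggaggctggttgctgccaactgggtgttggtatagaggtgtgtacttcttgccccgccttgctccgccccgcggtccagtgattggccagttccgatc
Adam10: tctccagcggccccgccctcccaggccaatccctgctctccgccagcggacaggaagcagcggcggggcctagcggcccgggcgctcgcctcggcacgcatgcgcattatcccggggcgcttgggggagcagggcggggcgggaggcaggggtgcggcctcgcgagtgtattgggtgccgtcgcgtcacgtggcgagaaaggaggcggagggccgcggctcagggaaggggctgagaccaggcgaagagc

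These matches are descriptions of the letters in a short window, and no binding was measured here.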

How the data were processed

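The authors sequenced Smart-seq2 libraries as paired ends, and deposited for each library raw read counts per gene, not normalized, and FPKM values computed from them. The submitters' processing notes name GRCm38, cutadapt 1.9 and FastQC; the aligner and counter are not given in the sources used here. Smart-seq2 carries no molecular identifiers, so reads are not independent molecules and floors of 3 counts cover counting error only. Nothing says that the pools came from separate experiments, and the p-values and fold change intervals measure the spread between pools.

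Counts were tested with edgeR 4.0.16 (quasi-likelihood, TMM normalization, no block) on R 4.3.3, on the 10440 genes averaging 1 FPKM or more, with Benjamini-Hochberg adjustment over all of them and a threshold of 0.05. The common biological coefficient of variation was 0.265. TMM factors were 1.10 to 1.14 in Ctrl and 0.889 to 0.905 in LIP. Chi-square per gene between libraries of 1 group was 51.9 to 126, above sampling noise. Ratios used log2 FPKM and two-sided exact permutation tests. Sequences came from GENCODE M21 transcripts and RefSeq. The script was tested on simulated data. Alternatives were DESeq2 1.42.0, limma 3.58.1, other normalizations and filters, a replicate block, and each library left out in turn.

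The members and lists were chosen with earlier results of these data known. Named besides the 10 genes are, from each related list, up to 5 genes past the threshold with the largest change in each direction and any with a mean FPKM of at least 100, the 3 nearest genes of *Mmp8*, *Mmp9* and *Mmp25*, and the most abundant gene of each cell type list. Some results for single genes that this rule names are left out. Of the natural killer cell and the eosinophil and basophil genes, led by *Gzma* and *Siglecf*, 3 of 6 and 1 of 6 tested were higher. Over all genes tested, 26.5% were called higher and 27.2% lower. In the second list 1 gene, *Il5ra*, named after its values were seen, was lower (log2 fold change -1.82). *Il5ra* reached the filter only through the Ctrl libraries, with means of 3.24 FPKM in Ctrl and 0.74 FPKM in LIP. Of the stromal genes only *Pecam1* was tested, at a log2 fold change of -0.41 that did not pass.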

Additional observations from a re-analysis of the deposited data

How the results depend on the processing

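The number of the 9 tested genes called higher was 7 under library totals, median-of-ratios factors, DESeq2, both limma fits, no filter, filterByExpr and the fit without haemoglobin, immunoglobulin and mitochondrial genes, 6 of the 8 that remain at a mean FPKM of at least 5, and 7 to 8 when 1 library was left out. With the replicate block it was 7, with 0 lower; deviations of libraries with the same number correlated at 0.0212 to 0.0562, and nothing in the labels says that a number marks a shared source; the block changed no call of the 9 genes. On the mature neutrophil list 1 was higher and 2 were lower, and on the granule list 6 and 2; the median over all genes shifts with these lists by construction. That median was -0.42 with library totals, -0.31 and -0.40 in limma and -0.25 without a filter.

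*Adam10* reversed its small log2 fold change to -0.26 with library totals, -0.27 and -0.24 in limma with pseudocounts of 0.1 and 1, -0.10 at a mean FPKM of at least 5, -1.28 on the granule list and -1.75 on the mature neutrophil list, and lay between -0.16 and 0.31 when 1 library was left out, below 0 without Ctrl replicate 2 (-0.05) and without LIP replicate 3 (-0.16). *Adam17* became -0.99 and -1.46 on the 2 lists. On the mature neutrophil list *Adam19* became -0.095 and *Timp2* -0.082. Among ratios that overlapped between groups, 5 changed sign when 1 library was left out. The log2 difference then ranged from -0.071 to 0.20 for *Mmp9* to *Timp2* and from -0.029 to 0.74 for *Adam17* to *Adam10*. Relative to the mature neutrophil list it ranged from -0.084 to 0.12 for *Mmp9*, from -0.023 to 0.36 for *Mmp25* and from -0.22 to 0.027 for *Adam19*. The first of these pairs and both *Mmp* genes against the list turned without Ctrl replicate 2, *Adam17* to *Adam10* and *Adam19* without LIP replicate 2, and *Mmp9* against the list also without LIP replicate 3 (-0.0074). Where no construction is named, the cause was not tested.

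Calls over all genes were 1768 higher and 1869 lower at a mean FPKM of at least 5, where fewer genes are tested, 318 and 8098 on the granule list and 61 and 9253 on the mature neutrophil list. The other family genes called higher numbered 1 with library totals, in both limma fits and at a mean FPKM of at least 5, and 1 to 2 when 1 library was left out; on the granule list they were 0 higher and 1 lower, on the mature neutrophil list 0 and 2. The processing genes gained 2 lower calls with filterByExpr and 1 with no filter, had 1 higher and 6 lower on the granule list, and 0 and 8 on the mature neutrophil list. The binding genes had 1 higher and 4 lower, and 1 and 9, on these lists. The shed substrates had 1 lower at a mean FPKM of at least 5, 4 higher and 6 lower on the granule list, and 1 and 12 on the mature neutrophil list. The low counts of *Timp1* and of most other family genes limit what can be said of them at this depth.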

Other observations

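Below a mean FPKM of 1, the edgeR fit without a filter called 1 further family gene and 1 processing gene, both named after their values were seen. *Mmp2*, which encodes gelatinase A and is the proenzyme that TIMP2 helps to activate, had 160 reads over the 3 Ctrl libraries and 520 over the 3 LIP libraries (log2 fold change 2.01, SE 0.57, edgeR adjusted p = 0.0470). *Tspan33*, an escort of ADAM10, had 1267 and 259 reads (log2 fold change -2.01, SE 0.53, edgeR adjusted p = 0.0365).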
